A study of Mus musculus with 13 samples.

Results

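Mouse chromosome 16 was described from every variant and copy number call deposited for it in 7 whole-genome libraries of an N-Myc leukaemia study. The members are all table lines whose chromosome field is 16, which gave 40788 of the 1076349 lines in the series. They comprise 10098 SNV calls at 3064 distinct variants, 30370 INDEL calls at 18035 distinct variants and the copy number calls of 6 libraries. The chromosome was chosen because copy number gains had been seen on it in B-ALL and AML, so the extent of those gains is given as a description, with no test. The SNV calls numbered 1592 in B-ALL, 1551 in AML, 1511 in T-ALL, 1638 in AUL, 1186 in the control, 1320 in T-MPAL and 1300 in M-MPAL. The INDEL calls numbered 5206 in B-ALL, 5915 in AML, 4909 in T-ALL, 4243 in AUL, 3531 in the control, 3295 in T-MPAL and 3271 in M-MPAL. Copy number calls numbered 127 in B-ALL and 159 in AML, against 15 in M-MPAL, 9 in T-MPAL and 5 each in T-ALL and the control. The AUL copy number table ended in mid-line and was not used here.

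All libraries were made from sorted GFP+ bone marrow cells of C57BL/6 mice aged 8 to 10 weeks, with N-Myc delivered by a retrovirus in the leukaemias and GFP+ cells labelled empty control for comparison. B-ALL cells were B220+, T-ALL cells CD3+, AML cells Mac1+Gr1+, and AUL cells lacked B220, CD3, Mac1 and Gr1. The M-MPAL cells were positive for Mac1/Gr1 and lacked B220 and CD3/4/8, and the T-MPAL cells were positive for CD3/4/8 and lacked Mac1/Gr1 and B220. Each group had 1 library, and the labels do not say which libraries came from the same mouse. B-ALL, T-ALL, AML and AUL were made from 2000000 cells each and share a protocol text, while the control and both MPAL libraries were made from 1000000 cells and carry another. A difference of B-ALL or AML from the control therefore cannot be told apart from that split, and T-ALL, with the same protocol text, was used as a second denominator. The labels name no matched normal DNA, and no RNA was measured in these files.

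Mouse chromosome 16 is a telocentric chromosome, so its base numbering starts at the centromere. Its far end corresponds to a large part of human chromosome 21, and an extra copy of that end is the basis of mouse models of Down syndrome. It carries Runx1 and Erg, transcription factors of blood stem and progenitor cells, the lambda light chain locus with the surrogate light chain genes of B-cell precursors, and a cluster of type I and type II interferon receptor genes. An extra copy in every cell gives a depth of 1.5 times the usual, and moves the read share of a heterozygous variant from 0.5 to 0.333 or 0.667.

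Mature microRNAs of the chromosome are shown because several lie between the gaps of the B-ALL gain. They repress messenger RNAs through their seed, bases 2 to 8, which is in capitals in the RefSeq sequences (build GRCm38.p6) below. The first 3 are made from a shared cluster at chr16:77598940-77646339, which was gained in B-ALL as part of the stretch chr16:76619001-78408000 between 2 gaps. miR-155 (chr16:84714143-84714165) promotes B-cell and myeloid cell responses and lay in the B-ALL gain chr16:84069001-85906000. miR-6367 has the same seed as miR-125b, the only seed shared among the 49 mature sequences of the chromosome. miR-691 (chr16:74342005-74342026) was the single microRNA of 34 outside the B-ALL gain. These were picked after their positions were seen.
mmu-miR-99a-5p: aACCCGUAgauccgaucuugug
mmu-let-7c-5p: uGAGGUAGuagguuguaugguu
mmu-miR-125b-5p: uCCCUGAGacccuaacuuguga
mmu-miR-6367: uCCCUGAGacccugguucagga
mmu-miR-155-5p: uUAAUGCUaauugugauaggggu
mmu-miR-691: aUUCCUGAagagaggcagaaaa

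All 34 microRNA genes lay inside the AML gain and 33 lay inside the B-ALL gain, while gains in the other 4 copy number tables held 0 of them. These counts are near those of coding genes, of which 94.8% lay wholly inside the B-ALL gain and 99.6% inside the AML gain. miR-99a and let-7c keep growth and differentiation programmes in check in many tissues, and miR-125b is a known driver of leukaemia in mice when raised in blood stem cells.

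The gains in B-ALL and AML began and ended at the same bases. Both started at chr16:3252001 and ended at chr16:98059000. Up to base 3554001 both were uncalled except for a short block of 32 kb. The calls of T-ALL, M-MPAL and T-MPAL also start at the first base of that block. Between the outer ends of the gains lay all 679 coding genes of the chromosome, so these ends span its whole gene content. From base 3554001 to the end, a body of 94.5 Mb, AML was called gained over 94.4 Mb and B-ALL over 68.9 Mb. Chromosome 16 made up 98.4% of the autosomal gain in AML and 97.2% in B-ALL, but 1.98% in T-ALL, 0.942% in the empty control, 0.0770% in M-MPAL and 0.0413% in T-MPAL. The gain common to B-ALL and AML was 69.0 Mb, which is 99.99% of the B-ALL gain and 73.1% of the AML gain. Only 10 kb was gained in B-ALL alone, against 25.4 Mb in AML alone. Touching calls merged into 22 stretches in B-ALL and 10 in AML. The 2 gains shared 11 ends of these stretches, of 44 in B-ALL and 20 in AML. The shared ends include those of the 32 kb block, the first and last base of the body and the ends of 3 gaps. Some of these gap ends also bound calls in libraries without the gain. A control call of 6 copies starts where the shared gap chr16:15374001-15379000 ends. An M-MPAL call of 5 copies ends where the shared gap chr16:45353001-45355000 starts.

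**Figure D1:**
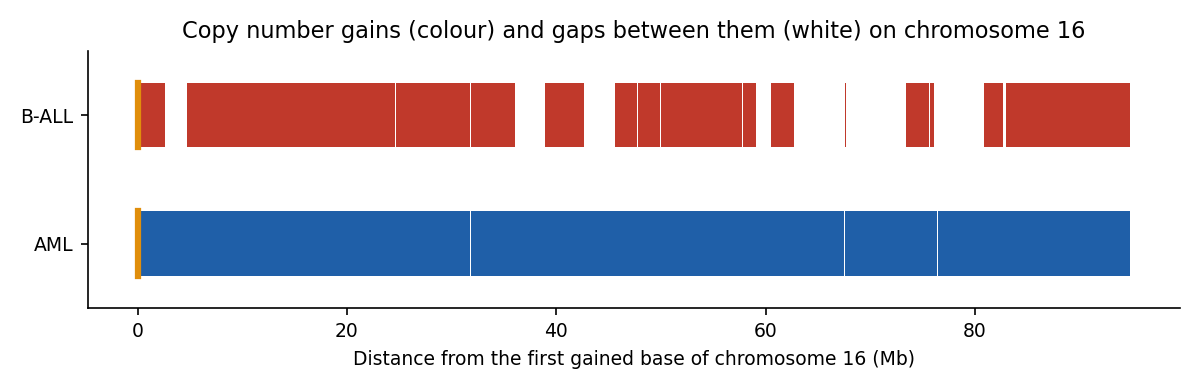
Copy number gains on chromosome 16 in B-ALL (top bar) and AML (bottom bar), drawn by distance in Mb from the first gained base. Colour marks the called gain, white the gaps inside it and orange the 32 kb block at the start. B-ALL has 20 gaps and AML 8.

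What set the 2 gains apart was their gaps. B-ALL had 20 gaps with a summed length of 25.6 Mb, of which 7 were over 1 Mb and made up 24.7 Mb. AML had 8 gaps of 150 kb in all, the widest 63 kb, and 6 of the 8 lay inside a B-ALL gap. Exactly 3 gaps had the same ends in both libraries, and the widest of these, chr16:34999001-35062000, lies over parts of Mylk, the myosin light chain kinase, and Hacd2. The B-ALL gaps held few genes. By gene midpoint, the B-ALL calls held 648 coding genes at 9.40 per Mb and its gaps 31 at 1.21 per Mb.

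The widest B-ALL gap, 5.72 Mb at chr16:70899001-76619000, spans the axon guidance receptors Robo1 and Robo2, with Lipi, Rbm11, Hspa13, Samsn1 and Nrip1, a nuclear receptor corepressor. The next, 4.79 Mb at chr16:65998001-70788000, holds the adhesion gene Cadm2, Speer2 and Gbe1, the glycogen branching enzyme. A gap of 4.71 Mb at chr16:79361001-84069000 holds Ncam2, a neural cell adhesion gene, and no other coding gene. These 3 gaps are gene-poor, with 1.22, 0.626 and 0.212 coding genes touched per Mb. A gap of 2.98 Mb at chr16:45916001-48892000 is the richest of the 5 widest, with 13 coding genes touched, among them Phldb2, Plcxd2, Cd96 (a receptor of T and natural killer cells), Nectin3, Dppa4, Dppa2, Morc1, Trat1 (an adaptor of the T-cell receptor), Retnlb, Retnla and Retnlg. The fifth, 2.85 Mb at chr16:39339001-42188000, holds 2 coding genes, of which Lsamp, a neural adhesion gene, is one. The other 2 gaps over 1 Mb hold Rbfox1, a splicing regulator (2.17 Mb), and Nsun3, Arl13b, Stx19, Pros1 and Epha3 (1.46 Mb).

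Joining calls over gaps under 1 Mb left 1 block in AML and 7 in B-ALL. The first B-ALL block, of 2.596 Mb, starts 455 kb from Mefv, the pyrin gene, and ends 36.8 kb from Rbfox1. The longest, 31.3 Mb at chr16:8020001-39339000, runs from near Tmem114 to near Igsf11 and holds 335 coding genes. A block of 3.73 Mb runs from near Lsamp to within Phldb2, and one of 13.4 Mb from near Retnlg to near Nsun3. A block of 2.22 Mb starts inside Epha3, an ephrin receptor, and ends near Vgll3. The block of 2.74 Mb at chr16:76619001-79361000, between the widest and the third widest gap, runs from near Nrip1 to near Tmprss15 and holds 6 coding genes beside the miR-99a cluster. The last block, of 13.99 Mb, starts 649 kb from Mrpl39 and ends 96.4 kb from Zbtb21. It holds 151 coding genes, among them the 21 listed counterparts of human chromosome 21 genes. Gene content thus ranged from 2.19 coding genes per Mb in the block between the widest and the third widest gap to 15.8 per Mb in the first.

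Nearly all of the gain was called at 3 copies, 68.9 Mb in B-ALL and 94.4 Mb in AML. The tables also give a genotype, in which AAA means that all copies were assigned to 1 allele and AAB that 2 alleles were seen. AAA covered 67.9 Mb of the B-ALL gain and 92.8 Mb of the AML gain, 98.6% and 98.3% of the 3-copy length. AAB covered 0.807 Mb in B-ALL (27 calls) and 1.49 Mb in AML (36 calls). C57BL/6 is an inbred strain with few heterozygous sites. The 32 kb block at chr16:3252001-3284000 was called at 9 or more copies in all 6 copy number tables, the control from base 3253001 on, so this block is common to all of them.

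Coding genes followed the calls. Of 679 coding genes on chromosome 16, 644 lay wholly inside a gain in B-ALL and 676 in AML, and 0 in each of the other 4 tables. Over the coding genes of chromosomes 1 to 19, the share wholly inside a gain was 3.19% in B-ALL, 3.31% in AML, 0.029% in T-ALL, 0.0677% in the control, 4.16% in T-MPAL and 3.83% in M-MPAL. The chromosome was chosen on these gains, so nothing beyond the count is read from it.

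All 69 genes of 6 functional lists lay wholly inside the gain in both B-ALL and AML. None lay wholly inside a gain in the other 4 copy number tables, and Litaf was touched by a short call in M-MPAL. The 11 blood transcription factors included Runx1 (chr16:92601466-92826074), a regulator of blood stem cells and of megakaryocyte, B-cell and T-cell development, and the ETS factors Erg (chr16:95359169-95586600) and Ets2 (chr16:95702407-95721049). Bcl6, the repressor of germinal centre B cells, Cebpd, of the family that drives myeloid differentiation, and Hes1, a Notch target, lay in the long second block of B-ALL. Among the 8 chromatin genes were Crebbp, a histone acetyltransferase, Usp7, a deubiquitinase that acts on Mdm2, Hmgn1, a nucleosome-binding protein, and Chaf1b and Hira, which assemble nucleosomes. The 7 repair and replication genes included Prkdc, the kinase of non-homologous end joining, Ercc4, a nuclease of excision repair, Polq, the polymerase of theta-mediated end joining, and Mcm4, a subunit of the replicative helicase. The 20 immune genes included Vpreb1 and Igll1, which form the surrogate light chain of B-cell precursors, Iglc1 of the lambda light chain, Cd80 and Cd86, which costimulate T cells, and the receptors Ifnar1, Ifnar2, Ifngr2 and Il10rb. The 10 signalling genes included the adaptor Crkl and the kinases Gsk3b and Dyrk1a. All 21 listed counterparts of human chromosome 21 genes, among them App, Sod1, Itsn1 and Dscam, lay in the last B-ALL block. The list is a choice of such genes and not the full set, and counterparts outside it, including any in the B-ALL gaps, were not looked up. The same state held for 94.8% of the chromosome's coding genes in B-ALL and 99.6% in AML, so nothing is particular to these lists.

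Variants of 1 library alone that passed stringent filters were counted in the list genes (outside segmental duplications, DV/DP of at least 0.2, 4 or more alternative reads, quality 100 or more). The whole chromosome held 14 such SNVs and 120 such INDELs in B-ALL, 7 and 142 in AML, and 11 to 169 SNVs and 49 to 117 INDELs in the others. In the list genes, SNVs numbered 0 in B-ALL, 1 in AML (in Sim2), 1 in T-ALL (in Hlcs), 6 in AUL, 2 in the control, 1 in T-MPAL and 0 in M-MPAL. The INDELs numbered 4 in B-ALL, 7 in AML, 4 in T-ALL, 5 in AUL, 2 in the control, 3 in T-MPAL and 4 in M-MPAL. Runx1 held 3 of the AML INDELs and 1 of T-MPAL, and Erg held 2 of B-ALL, 2 of AUL and 1 of the control. Neither gene thus held such INDELs in the gained libraries alone. Neither had a protein-altering variant by the deposited annotation, and they are long, at 225 kb for Runx1 and 227 kb for Erg. Annotated repeats held 99.2% of the chromosome's INDELs of this kind in B-ALL and 98.6% in AML.

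The depth at SNVs called in all 7 libraries, of which 653 lay on chromosome 16, comes from other tables than the copy number calls but from the same reads, so it is not independent of them. Relative depth is the median over these sites of a library's depth divided by the control's, divided by the same median over the other autosomes. It was 1.58 in AML (95% interval of the median 1.47 to 1.66) and 1.44 in B-ALL (1.35 to 1.54). The other libraries were above 1 too, at 1.28 in AUL (1.21 to 1.35), 1.22 in T-ALL (1.13 to 1.32), 1.20 in M-MPAL (1.17 to 1.29) and 1.16 in T-MPAL (1.10 to 1.23). The 2 gained libraries were thus highest, and the lower end of the B-ALL interval lay at the upper end of that of AUL. For B-ALL this order depended on the denominator. Over T-ALL at the same 653 sites B-ALL had 1.06 (1.04 to 1.08) and AUL 1.05 (1.03 to 1.06), and from raw depths B-ALL had 1.17 (1.06 to 1.27) and AUL 1.17 (1.04 to 1.28), while AML had 1.196 and 1.33. These intervals cover the spread over sites and counting error, not the spread between animals.

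Much of that common excess moved with a short duplicated stretch. Of the 653 sites, 365 (55.9%) lay in segmental duplications within 226 kb at chr16:3122370-3348807. The median depth there was 44 reads in the control, against 77 in B-ALL, 89 in AML, 84 in T-ALL, 80 in AUL, 75 in M-MPAL and 78 in T-MPAL. Outside segmental duplications, at 284 sites, the relative depth was 1.43 in AML (1.33 to 1.5) and 1.34 in B-ALL (1.24 to 1.49). The other 4 were then near 1, at 1.04 in AUL, 1.02 in M-MPAL, 1.01 in T-ALL and 0.942 in T-MPAL. At these sites the median depth was 30 reads in AML, 27 in B-ALL, 23 in T-ALL, 21 in AUL, 20 in M-MPAL and T-MPAL and 19 in the control. On the other autosomes outside duplications it was 27 in the control, 33 in T-ALL and 30 in each of the other 5.

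With T-ALL as the denominator outside duplications, the relative depth was 1.34 in AML (1.29 to 1.39) and 1.28 in B-ALL (1.22 to 1.35). AUL had 1.02 (0.989 to 1.07), M-MPAL 0.990 (0.940 to 1.03), T-MPAL 0.939 (0.902 to 0.977) and the control 0.987 (0.932 to 1.07). Chromosome 16 ranked first of 19 autosomes in both B-ALL and AML, above a next highest value of 1.04 (chromosome 18) in B-ALL and 1.06 (chromosome 11) in AML. It ranked between 4 and 10 in the other libraries. INDELs called in all 7 libraries, a separate set of 224 sites on chromosome 16, gave 1.42 in AML (1.29 to 1.48) and 1.296 in B-ALL (1.26 to 1.34), against 0.957 to 0.997 in the others. With T-ALL as the denominator, these values for AML and B-ALL were under the 1.5 of an extra copy in every cell. Over the control, outside both repeats and duplications (107 sites), the relative depth was 1.52 in AML (1.24 to 1.60) and 1.36 in B-ALL (1.23 to 1.64). Both of those intervals hold 1.5. T-ALL is itself a leukaemia, not a normal sample, but its chromosome 16 had no gain call beyond the 32 kb block.

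**Figure D2:**
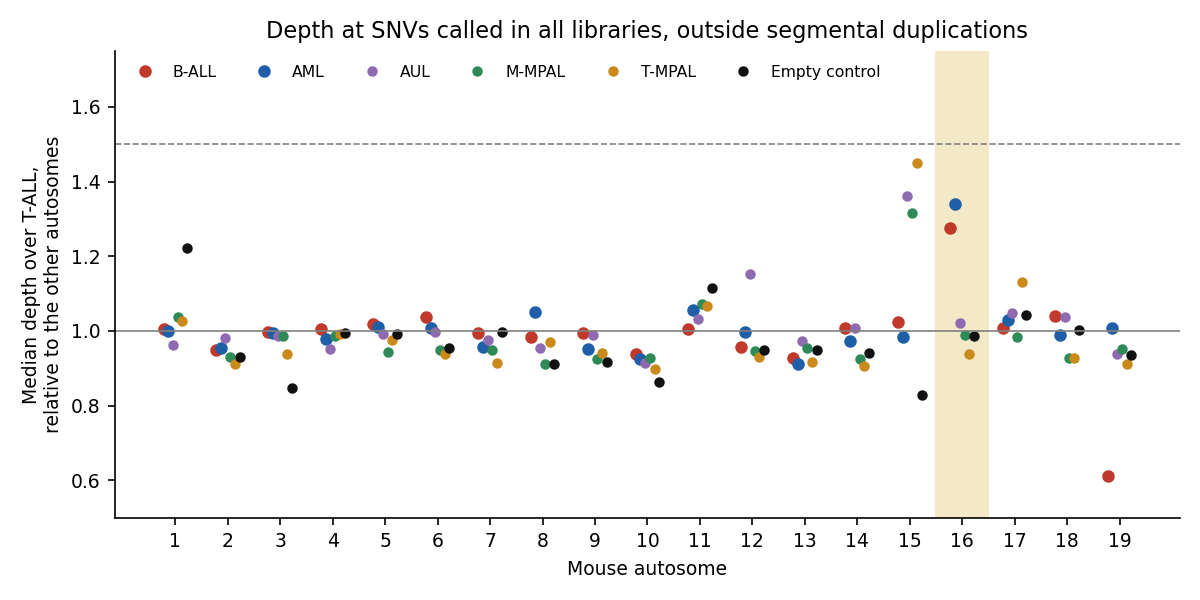
Relative depth of each autosome (x axis) at SNVs called in all 7 libraries outside segmental duplications, with T-ALL as the denominator (y axis, no unit). Points are libraries, the shaded column is chromosome 16, the solid line is 1 and the dashed line is 1.5. On chromosome 16, AML (1.34) and B-ALL (1.28) stand above the other 4 libraries.

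Along the chromosome, the median was above 1 in every 10 Mb bin of both libraries. SNV and INDEL sites were combined, outside duplications and over T-ALL, with 24 to 97 sites in a bin. AML ranged from 1.25 in the fourth bin to 1.504 in the sixth, with a median of 1.37. B-ALL ranged from 1.11 in the first bin (1.03 to 1.26) to 1.47 in the sixth (1.27 to 1.70), with a median of 1.28. The bins of AUL ranged from 0.881 to 1.08, those of M-MPAL from 0.869 to 1.03, those of T-MPAL from 0.812 to 1.03 and those of the control from 0.791 to 1.11. In the first bin the control also had a median of 1.11, so B-ALL did not stand apart there. That bin begins before the gained body at base 3554001 and includes the 2.17 Mb B-ALL gap, with 15 sites. Its median is therefore not that of the B-ALL gain calls alone.

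**Figure D3:**
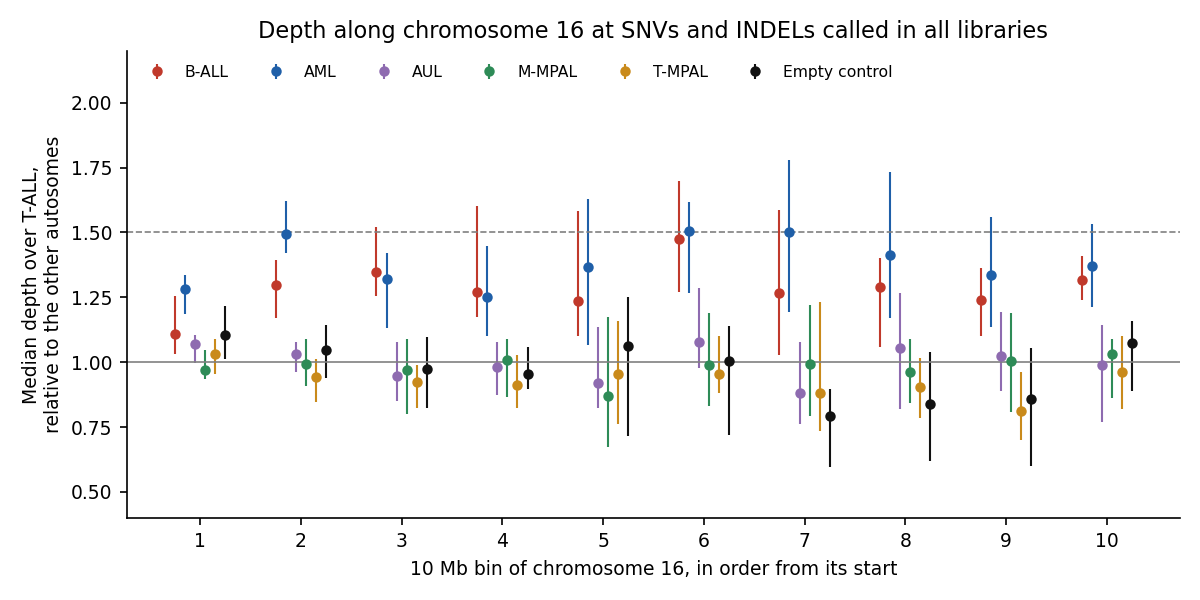
Relative depth over T-ALL (y axis, no unit) in 10 Mb bins of chromosome 16 (x axis, in order from the start of the numbering). Points are medians over sites and bars their 95% intervals, the solid line is 1 and the dashed line is 1.5. AML lies between 1.25 and 1.504 and B-ALL between 1.11 and 1.47.

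Over the B-ALL gaps combined, the depth of B-ALL stayed above that of the control, AUL and both MPAL libraries. Inside the B-ALL calls (411 sites), its depth over T-ALL was 1.32 (1.28 to 1.36), and in its gaps (67 sites) 1.19 (1.10 to 1.36). AML had 1.41 (1.35 to 1.45) and 1.304 (1.21 to 1.45) at the same 2 sets of sites, although AML was called gained over nearly all of both. The control, at 1.00 inside the calls, had 0.813 (0.621 to 0.966) in the gaps, so values were lower in the gaps in libraries without a gain too. Set directly over AML, B-ALL had 0.961 (0.932 to 0.993) inside its calls and 0.989 (0.923 to 1.09) in its gaps. These intervals overlap, and no lower B-ALL depth relative to AML was detectable in the gaps at this number of sites. Within single gaps the sites were few. In the 2.17 Mb gap over Rbfox1 (15 sites) B-ALL over AML was 1.04 (0.935 to 1.22), in the widest gap (12 sites) 1.02 (0.865 to 1.28) and in the gap over Cadm2 (14 sites) 0.981 (0.646 to 1.32). It was 0.961 in the gap over Cd96 (10 sites), 1.03 in the gap over Lsamp (2 sites), 0.692 in the gap of 1.46 Mb (5 sites) and 1.298 in the gap over Ncam2 (5 sites). In that last gap the depth over T-ALL was 0.972 in B-ALL and 0.753 in AML, so single gaps did not all show the excess.

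The alternative read share, DV/DP, gives a further view of the copies. Heterozygous-like SNVs were taken with a quality of at least 100, 10 or more reads, 4 or more of them alternative, a DV/DP from 0.2 to 0.8 and calls in at most 6 libraries, outside duplications. At an even 2 copies the share lies near 0.5, and at 1 or 2 of 3 copies its distance from 0.5 is 0.167. In B-ALL the median distance on chromosome 16 was 0.0979 (0.0833 to 0.125) over 88 SNVs, against 0.119 on the other autosomes. In AML it was 0.107 (0.0714 to 0.130) over 87 SNVs, against 0.1. Neither interval reached 0.167 over these SNVs. Both did over the few called in 1 library alone at the same quality. There the distance was 0.125 (0.0714 to 0.177) in B-ALL over 13 SNVs and 0.0897 (0.0309 to 0.224) in AML over 7. With all deposited qualities the distances were 0.155 (0.136 to 0.173) in B-ALL and 0.149 (0.135 to 0.167) in AML, which do reach it, against 0.152 and 0.143 on the other autosomes.

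The other libraries had distances of a similar size. They were 0.0927 in T-ALL (104 SNVs), 0.0690 in AUL (216), 0.113 in the control (52), 0.0613 in T-MPAL (98) and 0.0882 in M-MPAL (109). The sets of SNVs were unlike. Those called in 1 library alone were 13 of 88 in B-ALL and 7 of 87 in AML. They were 44 in T-ALL, 169 in AUL, 9 in the control, 31 in T-MPAL and 41 in M-MPAL. Whether SNVs called in several libraries are truly heterozygous was not tested. On chromosome 15, whose relative depth over T-ALL was 1.36 in AUL, 1.32 in M-MPAL and 1.45 in T-MPAL, the median distance reached 0.149 in AUL, 0.143 in M-MPAL and 0.143 in T-MPAL. The median DV/DP on chromosome 16 was 0.431 in B-ALL and 0.450 in AML, against 0.452 and 0.462 elsewhere. From 0.42 to 0.58 lay 37.5% of the B-ALL SNVs and 40.2% of the AML SNVs, against 33.1% and 41.0% elsewhere. The first 50 Mb and the rest differed little in B-ALL, with distances of 0.0979 and 0.102. In AML they were 0.129 and 0.0876.

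**Figure D4:**
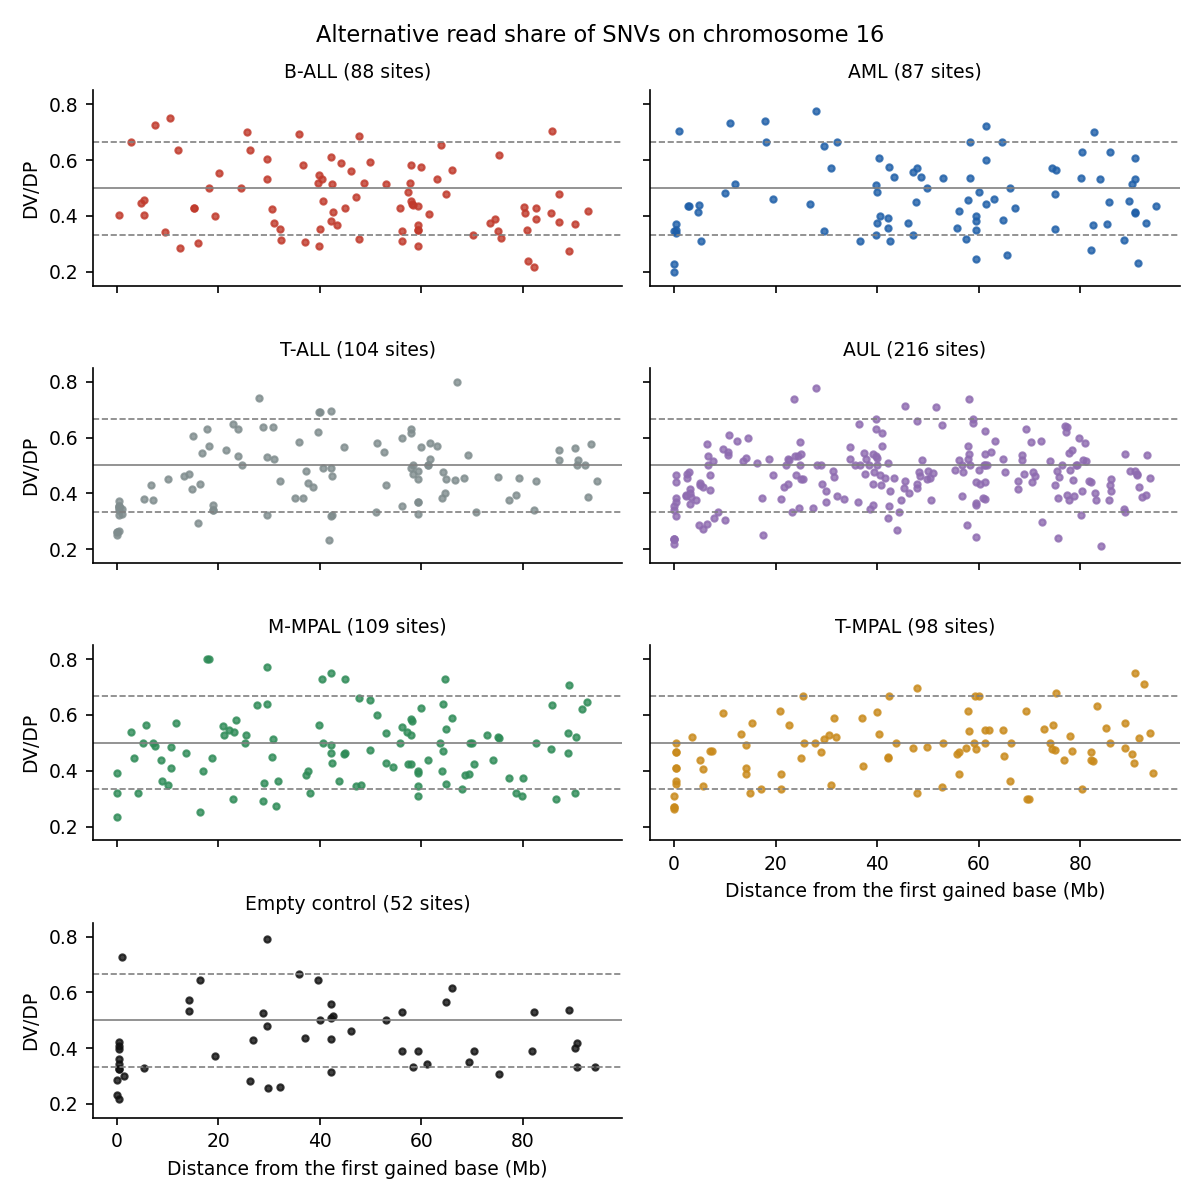
DV/DP of heterozygous-like SNVs (y axis) by distance in Mb from the first gained base of chromosome 16 (x axis), 1 panel per library. The solid line is 0.5 and the dashed lines are 0.333 and 0.667. In B-ALL and AML the points spread around 0.5 along the whole length, with medians of 0.431 and 0.450.

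SNVs with nearly all reads alternative were more frequent on chromosome 16 than elsewhere in B-ALL and AML. Among confident SNVs that were not in all libraries, a DV/DP over 0.8 was seen for 56 of 144 in B-ALL (38.9%, exact interval 30.9 to 47.4%), against 27.6% on the other autosomes. In AML it was 71 of 158 (44.9%, 37.0 to 53.0%) against 29.2%. In T-ALL it was 47 of 151 (31.1%, 23.8 to 39.2%) against 25.2%, and in the control 23 of 75 (30.7%, 20.5 to 42.4%) against 26.5%. AUL had 15.0% against 13.2%, M-MPAL 14.8% against 16.2% and T-MPAL 14.8% against 20.3%. The value of the other autosomes lay below the chromosome 16 interval in B-ALL and AML and inside it in the other 5. These intervals treat SNVs as independent, and neighbouring SNVs can be inherited together.

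B-ALL and AML also shared SNVs that no other library showed. On chromosome 16 there were 31 of 809 such SNVs (3.83%, exact interval 2.62 to 5.40%), and the other 20 pairs of libraries had 3 to 29 there, with M-MPAL and T-MPAL next. As a share of all SNVs of the pair, the other pairs ranged from 1.67% to 5.88%, so the value of B-ALL and AML lay within their range. With stringent filters in both libraries, 11 of 322 remained on chromosome 16 (3.42%), 9 of them intergenic. M-MPAL and T-MPAL kept 16 of 486. Every other pair kept only 4 to 32 SNVs over all chromosomes, with 0 to 2 on chromosome 16. The share in percent does not show this difference in totals. At the 11 SNVs of B-ALL and AML the DV/DP had a median of 0.410 in B-ALL (0.348 to 0.636) and 0.536 in AML (0.442 to 0.629). It was lower in B-ALL at 9 of the 11. On the other autosomes it was lower in B-ALL at 215 of 299 (71.9%), with medians of 0.391 and 0.462. Of the other SNVs of this set, 1 lies in an intron of Cxadr, a cell adhesion receptor, with 8 of 23 alternative reads in B-ALL and 21 of 44 in AML.

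The protein-changing member of that set was Krtap15 R78W at chr16:88829278, in exon 1 of a keratin-associated protein gene of hair. It had 16 of 39 reads in B-ALL and 18 of 40 in AML, shares of 41.0% and 45.0%, and no call in the other 5 libraries. Protein-altering variants of 1 library alone numbered 1 each in B-ALL, AML, T-ALL and T-MPAL (exact Poisson interval 0.0253 to 5.57 each) and 0 in AUL, M-MPAL and the control (0 to 3.69). Over all chromosomes they numbered 27 in B-ALL, 23 in AML, 34 in T-ALL, 66 in AUL, 31 in the control, 35 in T-MPAL and 27 in M-MPAL. In B-ALL it was a splice-site INDEL of Sept5, a septin (3 of 14 reads, quality 33.1), and in T-ALL an in-frame deletion in Vgll3, a cofactor of TEAD factors (3 of 24 reads). In T-MPAL it was Muc4 A1434P at chr16:32754427 (6 of 24 reads, quality 29.3), and in AML Muc4 M1472L (13 of 42 reads). All 4 had a quality under 40, and none passed the stringent filters.

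Muc4, a membrane mucin with repetitive coding sequence, held 16 of the protein-altering positions of the chromosome, and the other 6 genes with such variants held 1 each. None of the 16 was called in all 7 libraries. I1226T, called in 5 libraries, had 15 of 66 reads in B-ALL, 12 of 62 in AML, 10 of 31 in the control, 8 of 41 in T-MPAL and 12 of 44 in M-MPAL. The libraries in which its positions were called thus differed, and among the 5 libraries with a call at that site depth was highest in B-ALL and AML. Gcsam D147N at chr16:45620034, in a germinal centre B-cell gene and named after its values were seen, was called in B-ALL (16 of 31 reads), AML (23 of 40), T-MPAL (20 of 30) and M-MPAL (12 of 28). It was not called in T-ALL, AUL or the control. Changes in Dscr3 and Zc3h7a, also named after they were seen and annotated at splice sites, were called in all 7 libraries with every read alternative.

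Private SNVs, those called in 1 of the 7 libraries with at least 10 reads, took a share of chromosome 16 in B-ALL and AML that the control matched. They numbered 106 in B-ALL (4.31% of its private SNVs, exact interval 3.55 to 5.19%), 110 in AML (4.27%, 3.53 to 5.13%), 133 in T-ALL (3.09%), 268 in AUL (3.59%), 93 in the control (4.20%), 89 in T-MPAL (3.35%) and 110 in M-MPAL (3.44%). The intervals of B-ALL, AML and the control overlapped widely. Outside repeats and duplications the share was 6.35% in AML (32 SNVs, 4.38 to 8.85%), 4.23% in B-ALL and 4.16% in the control. T-ALL had 2.74% (2.02 to 3.63%), AUL 3.68%, M-MPAL 3.55% and T-MPAL 3.92%. There the AML interval lay above that of T-ALL and overlapped those of the other libraries. With stringent filters the counts were 14 in B-ALL (6.31%, 3.49 to 10.4%), 7 in AML (3.07%, 1.24 to 6.22%), 44 in T-ALL, 169 in AUL, 11 in the control (5.64%, 2.85 to 9.87%), 31 in T-MPAL and 41 in M-MPAL. Per Mb this was 0.147 in B-ALL and 0.0736 in AML, against 1.78 in AUL.

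None of the stringent private SNVs of B-ALL or AML on chromosome 16 was exonic. In B-ALL, 5 were intronic, with a neighbouring pair in Txnrd2, the mitochondrial thioredoxin reductase, at 15 of 35 reads each, and single ones in Ube2v2, Ubxn7 and Cadm2. In AML, 3 were intronic, a neighbouring pair in Cldn14, a tight junction claudin (43 of 81 and 34 of 56 reads), and one in Sim2, a transcription factor (16 of 39 reads). Changes of C to T, counted on either strand, made up 3 of 14 in B-ALL and 0 of 7 in AML. In AUL they made up 89 of 169 (52.7%, 44.9 to 60.4%), below the 61.6% of its other chromosomes. The AUL private SNVs were spread over all 10 bins, with at most 25 in a bin.

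Private INDELs did differ. Chromosome 16 held 1352 in B-ALL (4.59%, 4.35 to 4.83%) and 1664 in AML (5.0%, 4.77 to 5.24%). In the other libraries it held 1313 in T-ALL (3.60%), 1023 in AUL (3.59%), 1049 in the control (3.58%), 864 in T-MPAL (3.47%) and 813 in M-MPAL (3.28%). With stringent filters the shares were 8.07% in B-ALL (120 of 1487, 6.74 to 9.57%) and 7.27% in AML (142 of 1954, 6.16 to 8.51%), against 3.10% to 3.96% in the other 5. The intervals of B-ALL and AML did not meet those of any other library under either filter. Annotated repeats held 97.8% of the B-ALL and 98.3% of the AML INDELs with at least 10 reads. Among the few outside repeats and duplications the difference was not seen, with 4.42% in B-ALL (26 INDELs, 2.91 to 6.41%) and 3.99% in AML (27 INDELs, 2.64 to 5.75%), against 2.82% to 4.84% in the other 5.

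Depth moved with this. The stringent private INDELs had a median depth of 20 reads on chromosome 16 and 17 elsewhere in both B-ALL and AML. In AUL, M-MPAL and T-MPAL, where chromosome 15 was deeper, chromosome 15 held 6.14%, 6.87% and 8.03% of the stringent private INDELs, against 2.76% to 3.94% in the other 4 libraries. The part of depth in the INDEL shares was not tested.

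**Figure D5:**
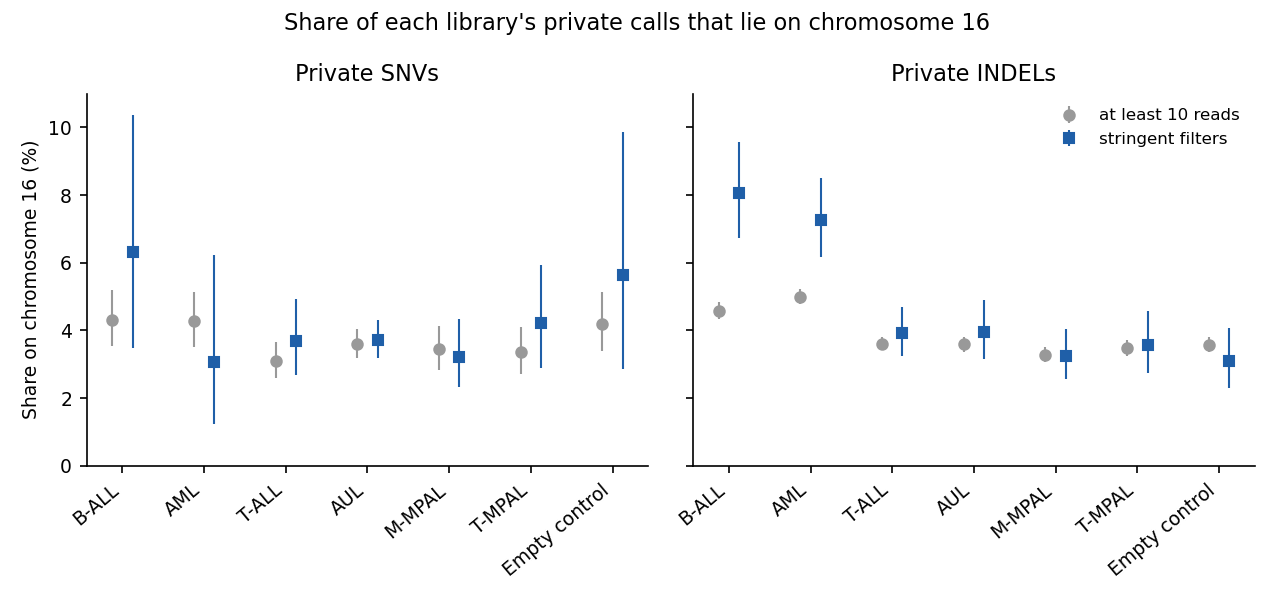
Share of each library's private SNVs (left) and private INDELs (right) that lie on chromosome 16 (y axis, percent), with at least 10 reads (circles) and with the stringent filters (squares). Bars are exact 95% Clopper-Pearson intervals. Among INDELs, B-ALL (4.59 and 8.07%) and AML (5.0 and 7.27%) stand above the other 5 libraries, and among SNVs they do not.

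Among INDELs of 2 libraries alone with at least 10 reads in both, chromosome 16 took its highest share in B-ALL and AML. It held 300 of 4429 (6.77%, 6.05 to 7.55%), the highest count of the 21 pairs, followed by AML and T-ALL with 217, and the other pairs ranged from 2.56% to 5.01%. With stringent filters in both libraries 27 of 389 remained (6.94%), against 0 to 10.8% in other pairs with at most 8 each, all 27 in annotated repeats, with 17 insertions and 10 deletions. Outside repeats and duplications the pair had 2 of 65 on chromosome 16 (3.08%), within the 0 to 10.5% of other pairs. The 27 stringent INDELs had a median alternative share of 0.529 in B-ALL and 0.710 in AML. By the lower of the 2 libraries' alternative reads, the best supported was an insertion at chr16:25025020 that turned g into gacata, with 18 of 21 reads in B-ALL and 21 of 22 in AML. An intronic insertion in Il10rb, a chain of the interleukin-10 receptor, had 11 of 23 and 18 of 26 reads. A deletion in an intron of Epha3 (gatat to g), inside the 1.46 Mb B-ALL gap, had 14 of 14 and 16 of 18 reads.

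Of 1078 promoter windows on chromosome 16 (250 bases before to 50 after a gene's start, from RefSeq), 6 held a variant called in at most 2 libraries, and 6 of the 7 variants were in repeats. The window around the change in Bdh1 is shown since it was called in AML alone and the repeat it falls in can be seen. The capital marks the unchanged base before the lost bases, and the window is written along the gene's strand in the GRCm38.p6 build. In Bdh1, a ketone body enzyme (chr16:31422056-31422206, plus strand), AML alone lost 2 bases in 5 of 30 reads. In Casr, the calcium-sensing receptor (change at chr16:36562380), a loss of 2 bases had 9 of 25 reads in B-ALL and 8 of 17 in M-MPAL, and a longer loss had 8 of 23 reads in T-ALL (quality 20.9). The Bdh1 change lies 166 bases before the gene's start and the Casr change 246 bases before it.
Bdh1 promoter window: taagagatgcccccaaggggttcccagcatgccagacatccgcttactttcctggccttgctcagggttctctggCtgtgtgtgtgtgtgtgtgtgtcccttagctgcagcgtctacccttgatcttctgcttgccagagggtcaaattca

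Outside B-ALL and AML, the copy number calls on chromosome 16 were short. T-ALL had none beyond the 32 kb block. M-MPAL had a 2 kb call of 48 copies in Litaf, a regulator of endosomal and inflammatory signalling, at chr16:10974001-10976000, and 3-copy calls of 2 kb and 29 kb in Mrtfb, a cofactor of serum response factor. It also had a 2 kb call of 7 copies in Dop1b and 3 loss calls with 80 kb in all, of which the widest, 70 kb at chr16:82149001-82219000, lies 525 kb from Ncam2. T-MPAL had 3-copy calls of 2 kb and 9 kb in Trat1 a 2 kb call of 5 copies 12.1 kb from Ifngr2 and a 24 kb loss at chr16:68231001-68255000, 610 kb from Cadm2. The control had a 3 kb call of 11 copies in Zc3h7a, a zinc finger gene, and a 2 kb call of 6 copies at chr16:15379001-15381000. It also had a 1 kb call of 0 copies at chr16:3252001-3253000, where the B-ALL and AML gains start. Further M-MPAL calls were one of 2 kb at 5 copies, 29.1 kb from Cd200, and 3-copy calls of 2 kb and 7 kb near Ift57. The 70 kb and 24 kb losses lie in stretches that are gaps in the B-ALL gain, and the other M-MPAL loss, at chr16:53067001-53077000, does not.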

How the data were processed

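Genomic DNA of sorted cells was cut to fragments of about 350 bp and sequenced in 150 bp pairs with 30x coverage as the aim, per the labels' protocols. Reads were aligned with BWA to mm10, per the submitters' processing notes. SNVs and INDELs were called with samtools, copy number with FREEC, and both annotated with ANNOVAR, per the file headers and names. The versions, filters and settings of these callers were not given in the sources used here. Each deposited copy number is a whole count of copies, and the deposited DP and DV fields are read counts. The deposited quality is a Phred-scaled score, per the file headers.

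Members were all lines of chromosome 16, and the members and gene lists were chosen with earlier results of these data known. FREEC starts were raised by 1 to be 1-based. The AUL copy number table was not used, and 6 integration-site samples were not analysed here. Gain means over 2 copies. Gene spans, promoter windows and miRNAs came from RefSeq (GRCm38.p6), and 28 of 28 exonic SNVs lay inside their RefSeq gene. Relative depth is the median of per-site depth ratios on chromosome 16 over the same median on the other autosomes. Private variants were called in 1 library alone, with a depth of 10 or more there, over chromosomes 1 to 19 and X. Stringent filters left out segmental duplications and required a DV/DP of 0.2 or more, 4 or more alternative reads and a quality of 100 or more. Each group had 1 library, so no test between groups was made. Intervals are 95% (exact Clopper-Pearson, exact Poisson, or order statistics of a median) and cover counting error and the spread over sites only. Without molecular identifiers, reads may repeat the same molecule.

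Named genes were the list genes, the 3 genes per library with the private protein-altering variant of most reads and all such genes of B-ALL and AML alone, genes at block ends and over the 5 widest gaps, and genes in other libraries' calls. Mylk and Hacd2 (a shared gap), Cxadr, Txnrd2, Ube2v2, Ubxn7 and Cldn14 (intronic SNVs), Bdh1 and Casr (promoter windows), Gcsam and Dscr3, and genes over other gaps were named outside this rule, after their values were seen. Olfactory, vomeronasal, Zfp, Gm and Rik genes were left out of all but the lists. Scripts were tested on simulated data and run with Python 3.11.15, pandas 2.3.3, numpy 2.4.6, scipy 1.17.1 and matplotlib 3.10.9. Alternatives changed the denominator, site set, depth minimum, quality, repeats and joining of calls.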

Additional observations from a re-analysis of the deposited data

How the results depend on the processing

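With 1 library per group, no replicate could be left out. No paired analysis was possible because each group has 1 library and no replicate numbers are shared. Of 67 alternative values for B-ALL and AML, 39 stayed within their interval or 1.5 times the main count and 28 moved, and the cause was not tested. The gained length stayed between 67.4 and 70.1 Mb in B-ALL and between 92.5 and 94.8 Mb in AML. The relative depth of B-ALL and AML was 1.06 and 1.20 with T-ALL as the denominator, 1.17 and 1.33 from raw depths, 1.34 and 1.43 outside segmental duplications and 1.54 and 1.68 from summed depths. Alternatives chosen after seeing the data gave 1.28 and 1.34 (outside duplications over T-ALL) and 1.296 and 1.42 (INDEL sites). With all deposited qualities the distance of DV/DP from 0.5 was 0.155 in B-ALL and 0.149 in AML. The private SNV share was 6.31% in B-ALL and 3.07% in AML with stringent filters, and in AML 3.33% at 20 or more reads and 6.35% outside repeats and duplications. The private INDEL share of B-ALL and AML was 7.92% and 8.99% at 20 or more reads and 8.07% and 7.27% with stringent filters. In AML it was also 4.63% at 5 or more reads, 3.99% outside repeats and 5.28% of autosomes alone. Protein-altering variants fell to 0 in B-ALL and 0 in AML with stringent filters, and to 0 in B-ALL at 20 or more reads. In each B-ALL gap over 1 Mb, 2 to 15 sites set the precision of the depth.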
